A study of Mus musculus with 8 samples.

Results

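Regulatory T cells (Tregs) of the mouse distal colonic mucosa were described from single-cell RNA sequencing. They were the 412 cells, of 53080 in all and of 5809 in the authors' T cell class, to which the deposited annotation gave the class T cells and the subtype Tregs. The mice were 8 weeks old. In the KO-labelled group, 4 mice (2, 3, 6 and 7) had both Spry2 alleles floxed and a Cre transgene driven by the promoter of villin (Vil1::Cre;Spry2-f/f), a promoter active in intestinal epithelium and not in T cells. In the WT-labelled group, 4 littermates (1, 4, 5 and 8) carried the floxed alleles without Cre (Spry2-f/f). KO-labelled mice 2, 3, 6 and 7 gave 43, 34, 117 and 50 Tregs. WT-labelled mice 1, 4, 5 and 8 gave 55, 39, 55 and 19 Tregs. The study asked how loss of the signalling inhibitor Sprouty2 from the epithelium changes the transcripts of colonic cells, and the Tregs bear on the part of that question that concerns suppressive lymphocytes.

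Tregs are CD4+ T cells that restrain immune responses, and in the colon they hold back reactions to food and microbes. Foxp3 is the transcription factor that defines the lineage. Il2ra encodes the alpha chain of the high-affinity IL-2 receptor, through which IL-2 and STAT5 sustain Foxp3 transcription. Ctla4 encodes a surface receptor that takes the costimulatory ligands CD80 and CD86 away from antigen-presenting cells, and Il10 encodes an anti-inflammatory cytokine. Colonic Tregs are commonly divided into thymus-derived cells, many of which express Gata3, the IL-33 receptor Il1rl1 and the Helios gene Ikzf2, and cells induced by microbes, which express Maf.

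In the GRCm38 build with the GENCODE M21 annotation, Foxp3 lies at chrX:7573644-7595245 on the plus strand, Ctla4 at chr1:60887000-60915832 on the plus strand and Il2ra at chr2:11642807-11693193 on the plus strand. Il10 lies at chr1:131019845-131024974 on the plus strand. Cxcl10, an interferon-induced chemokine that is the gene with the smallest p between the genotypes below, lies at chr5:92346638-92348889 on the minus strand. The 250 bases before a RefSeq start site (GRCm38.p6) are shown for Foxp3, which names the population, for Ctla4, whose level was the most regular mark of these cells, and for Cxcl10. Capitals mark a match to the STAT5-type motif TTCNNNGAA in Foxp3 and to the interferon-response motif GAAANNGAAA in Cxcl10, each searched on both strands. The Foxp3 stretch (chrX:7580233-7580482, plus strand) precedes a start site that lies inside an intron of longer Foxp3 transcripts. Its match runs from 139 to 131 bases before that start.
Foxp3: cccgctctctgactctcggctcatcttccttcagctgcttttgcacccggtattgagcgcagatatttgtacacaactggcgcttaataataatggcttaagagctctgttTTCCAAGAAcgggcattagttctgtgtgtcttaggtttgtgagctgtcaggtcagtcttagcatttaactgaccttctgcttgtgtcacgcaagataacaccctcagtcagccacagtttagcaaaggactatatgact
Ctla4: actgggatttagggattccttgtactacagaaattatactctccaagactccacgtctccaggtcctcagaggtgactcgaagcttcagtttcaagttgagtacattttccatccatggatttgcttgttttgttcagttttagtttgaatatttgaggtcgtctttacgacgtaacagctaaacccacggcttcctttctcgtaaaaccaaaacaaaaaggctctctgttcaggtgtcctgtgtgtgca
Cxcl10: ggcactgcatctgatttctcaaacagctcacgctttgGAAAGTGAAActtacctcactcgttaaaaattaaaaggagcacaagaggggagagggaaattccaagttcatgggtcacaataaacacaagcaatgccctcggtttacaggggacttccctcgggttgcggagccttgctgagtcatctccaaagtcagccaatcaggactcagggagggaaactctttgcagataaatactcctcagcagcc
The Ctla4 stretch (chr1:60908775-60909024, plus strand) held a match to neither motif. The Cxcl10 stretch (chr5:92348890-92349139, minus strand) held its match from 213 to 204 bases before the start. TTCNNNGAA matched in 7.02% and GAAANNGAAA in 2.98% of the same 250 bases of 32851 start sites in the table. A match describes the letters and is no evidence of binding.

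Each value below is a number of unique molecular identifiers (UMIs, counted transcripts). Levels are CPM, the UMIs of a gene in all Tregs of 1 mouse for every 1000000 UMIs of those Tregs. The Tregs of a mouse held 36284 (mouse 8) to 343356 (mouse 6) UMIs in all, and a single Treg held a median of 2348.5 UMIs and 1169.5 genes (756 to 9434 UMIs). A single UMI therefore weighed more in WT-labelled mouse 8 than in any other mouse. Over all cells the total per mouse ran from 17037906 to 37300028 UMIs. Spry2 transcripts in epithelial cells stood at 10.4, 13.3, 15.7 and 49.3 CPM in KO-labelled mice 2, 3, 6 and 7, against 11.2, 17.6, 27.7 and 37.6 CPM in WT-labelled mice 1, 4, 5 and 8. The 2 groups overlapped, and KO-labelled mouse 7 had the highest value of all 8 mice. These are 3′ end counts and the labels do not say which part of the gene is floxed, so they may not read the deleted part; the groups are named by their labels for this reason. The Tregs themselves held 1 Spry2 UMI, in KO-labelled mouse 3. The authors' cluster 17 held 402 of the 412 Tregs, together with 301 intraepithelial lymphocytes (IELs), 71 group 3 innate lymphoid cells (ILC3) and 71 proliferative cells. Of the 719 cells whose barcode also occurs in another mouse's library, 5 were Tregs.

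Foxp3, Ctla4 and Il10 transcripts set these cells apart from the rest of the T cell class, and Il2ra transcripts did not. Foxp3 was detected in 100 of 412 Tregs (24.3%, exact 95% interval 20.2 to 28.7%), and these cells held 147 of the 199 Foxp3 UMIs of the whole T cell class. At most 1.68% of any other group in the class had a Foxp3 UMI. Foxp3 reached 0.0156% of 12834 mature B cells and 0.0420% of 23787 epithelial cells, which should lack it and which held a median of 1893 and 1743 UMIs each. Il10 was detected in 68 Tregs (16.5%), which held 232 of the 276 Il10 UMIs of the T cell class; another 29 lay in 4 cells that the authors named doublets with macrophages. Ctla4 was detected in 295 Tregs (71.6%), with 1244 of the 2169 Ctla4 UMIs of the class. Il2ra was detected in 80 Tregs (19.4%), against 2.63% of activated, 3.39% of inactive and 1.76% of memory T cells. It was however detected in 42.7% of IELs, 49.7% of group 2 innate lymphoid cells (ILC2) and 41.9% of ILC3. At least 1 of the 4 markers was found in 311 Tregs and none in 101, and 202 Tregs without a Foxp3 UMI had a Ctla4 UMI. With every cell thinned to 1000 UMIs, which 409 Tregs could supply, Foxp3 was detected in 12.5%, Il10 in 11.5%, Ctla4 in 53.8% and Il2ra in 11%. Intervals cover counting error only.

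By level, Foxp3 averaged 161 ± 81.0 CPM in Tregs (SD over 8 mice; lowest 86.2, highest 331), against 2.46 ± 4.62 CPM in activated T cells, 11.7 ± 18.6 CPM in inactive T cells and 6.30 ± 4.46 CPM in memory T cells (7 mice for memory, since mouse 8 had 7 such cells). The lowest Treg value lay above the highest value in each of those subtypes. Ctla4 averaged 1238 ± 366 CPM in Tregs, against 38.7 ± 20.03 in activated, 194 ± 90.2 in inactive and 40.3 ± 11.6 CPM in memory cells, and it too did not overlap. Il10 averaged 247 ± 126 CPM in Tregs and 1.66 ± 4.69 CPM in activated cells. No Il10 UMI was found in memory cells, where a count of 0 allows up to 0.856 CPM. In inactive cells 9 Il10 UMIs lay in 2 cells, and WT-labelled mouse 8, with 16 such cells, stood at 447 CPM, above every Treg value. Il2ra averaged 144 ± 68.3 CPM in Tregs, between 73.6 ± 45.2 CPM in inactive T cells and 254 ± 113 CPM in ILC2, and the Treg values overlapped with both. These differences are given without a test, because the subtype names describe the same cells whose transcripts are compared, and how the authors gave them is not stated in the sources used here.

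**Figure D1:**
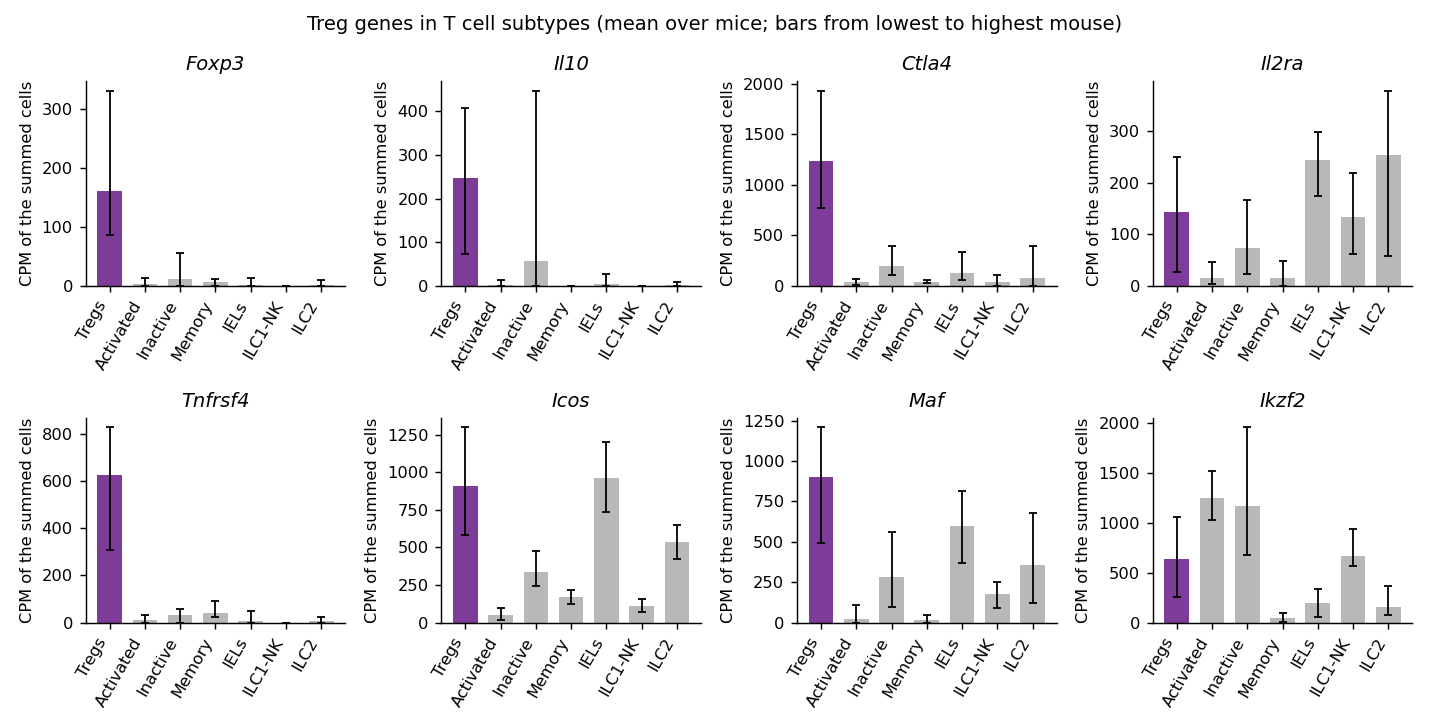
Levels of 8 Treg genes in 7 subtypes of the T cell class, in CPM of the cells of each mouse added together. Bars are means over mice (8, or 7 for memory cells) and lines run from the lowest to the highest mouse; Foxp3, Ctla4 and Tnfrsf4 stood far higher in Tregs than in the other subtypes shown, whereas Il2ra was as high or higher in IELs and ILC2 and Ikzf2 was higher in activated and inactive cells.

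Beyond the markers that name them, Tregs carried a set of costimulatory and transcription factor genes. Tnfrsf4 (OX40, a costimulatory receptor of the TNF receptor family) averaged 627 ± 194 CPM in Tregs, against 11.6 ± 12.9, 33.3 ± 20.3 and 41.1 ± 25.2 CPM in activated, inactive and memory cells. Izumo1r (folate receptor 4) averaged 393 ± 174 CPM in Tregs, against 8.86 ± 10.4, 46.8 ± 29.2 and 66.1 ± 37.6 CPM in the same 3 subtypes. Both genes separated Tregs from activated, inactive and memory cells without overlap between the mice. Maf, a transcription factor needed for Il10 transcription in T cells, averaged 898 ± 223 CPM in Tregs but also 595 ± 157 CPM in IELs. Icos, a costimulatory receptor, averaged 912 ± 238 CPM in Tregs and 961 ± 165 CPM in IELs. Cd4 averaged 241 ± 41.4 CPM in Tregs and 88.3 ± 18.5 CPM in memory cells, with 81.4 ± 53.2 CPM in inactive and 6.17 ± 11.5 CPM in activated cells. Ikzf2 went the other way: it averaged 636 ± 290 CPM in Tregs, against 1247 ± 185 CPM in activated and 1166 ± 381 CPM in inactive cells. Only memory cells, at 49.7 ± 34.1 CPM, had less Ikzf2 than Tregs in all mice compared among these 3 subtypes.

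Within each mouse, differences were taken on the log2(CPM + 10) scale, where they understate the change of low genes, among genes with a mean of at least 50 CPM on one side. Against activated T cells, 11.2% of 3447 such genes were higher in Tregs in every mouse and 7.4% were lower in every mouse. The largest differences among them were in Maf (5.20 ± 0.90, SD over mice), Tnfrsf4 (5.05 ± 0.92), Ctla4 (4.76 ± 0.78) and Izumo1r (4.41 ± 0.63). Among the lowest in Tregs, Cd7 differed by -5.84 ± 1.54, the signalling adaptor genes Fcer1g by -5.60 ± 1.54 and Tyrobp by -4.42 ± 1.25, the chemokine Xcl1 by -4.77 ± 1.29, the receptor Klrd1 by -4.74 ± 1.09 and the gamma-delta T cell receptor gene Trdc by -4.48 ± 1.5. Against inactive T cells, 14.5% of 3846 genes were higher in Tregs in every mouse and 10% were lower. Tnfrsf4 (4.01 ± 1.22), S100a4 (3.20 ± 0.71), Foxp3 (3.17 ± 0.43) and the actin-capping protein gene Capg (3.15 ± 1.09) stood among the highest, and the survival factor Bcl2 (-3.24 ± 0.77) among the lowest. Against memory cells, 28% of 3256 genes were higher in Tregs in every mouse and 6.42% were lower. The highest here were S100a4 (5.74 ± 0.65), Maf (5.34 ± 0.88), Ctla4 (4.51 ± 0.52) and Il10 (4.42 ± 0.85). Among the lowest were Igfbp4 (-3.85 ± 1.67), Dapl1 (-3.80 ± 0.84), the CD8 chain genes Cd8b1 (-3.20 ± 0.90) and Cd8a (-2.68 ± 1.09) and the transcription factor Lef1 (-2.93 ± 0.62). Ctla4 was the only gene among the 15 highest against all 3 subtypes.

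The suppressive genes were higher in Tregs in every mouse more often than all genes, to a different degree in each comparison. Their list holds Il10 and Ctla4, 2 of the 4 markers of these cells, so its counts partly restate the markers. Of the 20 genes on the list of suppressive machinery, 13 had at least 50 CPM beside memory cells, and all 13 were higher in Tregs in every mouse (median difference 3.49, against 0.34 over all genes). Among them were Lag3, which encodes an inhibitory receptor, Fgl2, which encodes a secreted suppressive factor, the protease Gzmb and Nt5e, which encodes the adenosine-forming enzyme CD73. Against activated cells, 10 of 15 were higher in every mouse (median 1.68, against 0.07 over all genes), and against inactive cells 5 of 15 (median 1.82, against 0.00). Over all genes, 11.2%, 14.5% and 28% were higher in every mouse against activated, inactive and memory cells. In the tissue Treg list led by Gata3 and Il1rl1, 11 of 15 were higher in every mouse against activated cells (median 1.94). Against inactive cells it was 4 of 15 (median 1.41) and against memory cells 11 of 13 (median 2.40). For the list of microbe-induced Treg genes, which holds Maf, Ahr and Il10, the counts were 4 of 8, 3 of 8 and 7 of 8 (medians 2.78, 1.59 and 3.17). The resting and lymphoid list ran opposite to these in 2 of the 3 subtypes: 11 of its 12 genes were lower in Tregs than in memory cells in every mouse (median -2.30) and 5 of 11 lower than in inactive cells (median -2.05), with 2 of 8 lower and 2 of 8 higher against activated cells. Against all other cells of the class together, which include the innate lymphoid cells, 9.68% of 3359 genes were higher and 5.39% lower in Tregs in every mouse, and the suppressive list had 7 of 15 higher (median 1.46, against 0.09).

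Tregs were heterogeneous in the genes that mark their known states. Ikzf2 was detected in 193 of 412 Tregs (46.8%) and Gata3 in 106 (25.7%). Mature B cells and epithelial cells had Gata3 in 0.0390% and 0.101%, and Ikzf2 in 0.319% and 5.00%, all below the shares in Tregs. Of the Tregs with a Gata3 UMI, 16% had a UMI of the activation receptor gene Klrg1 and 10.4% one of Il1rl1, against 3.92% and 2.61% of Tregs without a Gata3 UMI. In cells these were 17 against 12 and 11 against 8. The Tregs with Gata3 were deeper, with a median of 2550 UMIs against 2286.5, and the part of depth in these shares was not tested. Tregs with an Il10 UMI had Ctla4 in 67 and Maf in 61 of 68 cells. Gata3 was detected in 22.1% of the Tregs with Il10, against 26.5% of those without. The proliferation marker Mki67 was found in 4.13% of Tregs. Areg, an epithelial repair factor made by tissue Tregs, was detected in 18.0% of Tregs but also in 23.3% of epithelial cells, although Treg levels (345 ± 249 CPM) were far above those of activated (7.59 ± 7.28 CPM) and memory cells (7.07 ± 5.78 CPM).

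Foxp3 detection itself divided the Tregs. The 100 Tregs with a Foxp3 UMI held a median of 2189 UMIs each and the 312 without one held 2405.5, so the cells with Foxp3 were not the deeper ones. List counts and levels here are of the cells of all mice added together, and 18.2 to 47.4% of a mouse's Tregs had a Foxp3 UMI. All 17 genes of the suppressive list with at least 20 UMIs in Tregs were higher in the cells with a Foxp3 UMI (median log2 difference 0.93). Over all genes it was 3096 of 6173 (median 0.00). Within mice some of the 17 were irregular. Lrrc32 and Pdcd1 were higher in 4 mice and lower in 4, and Ebi3 and Itgb8 were higher in 4 and lower in 3. The list led by Gata3 and Il1rl1 had 14 of 15 higher and the microbe-induced list 10 of 11. Within mice this was not uniform either: in the first list Rora was higher in 2 mice and lower in 6, and Penk higher in 3 and lower in 4. Il10 stood at 516 CPM in Tregs with a Foxp3 UMI, against 117 CPM in Tregs without one, and was detected in 36% against 10.3%. For Il2ra the levels were 317 against 75.2 CPM and the shares 42% against 12.2%. Ctla4 stood at 1970 against 869 CPM, and was found in 93% against 64.7%. Il10 and Il2ra were higher in the cells with Foxp3 in all 8 mice, and Ctla4 was in 7. Of the costimulation and TNF receptor family list, 10 of 13 genes were higher in the cells with Foxp3, and the following receptor genes were higher in all 8 mice: Tnfrsf9 (4-1BB) stood at 399 against 109 CPM, Tnfrsf4 at 1087 against 505 CPM and Tnfrsf18 (GITR) at 629 against 321 CPM. The chemokine receptor gene Ccr2 (508 against 170 CPM), Nt5e (575 against 308 CPM) and the guanylate-binding protein gene Gbp7 (278 against 86.9 CPM) were also higher in all 8 mice. Capg (711 against 258 CPM) and Klrg1 (106 against 25.8 CPM) were higher in 7, and Ikzf2 (1039.7 against 540.2 CPM) in 6.

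In the opposite direction, 7 of 10 genes of the resting and lymphoid list (median -0.70), 11 of 11 cell cycle genes (median -0.45) and 5 of 5 effector cytokine genes (median -1.22) were lower in the Tregs with a Foxp3 UMI. These counts too are of all mice added together. Within mice, the cell cycle gene Tubb5 was higher in 4 mice and lower in 4, and Stmn1 was higher in 3 and lower in 4. Tcf7, a transcription factor of naive and memory T cells, stood at 78.2 CPM in Tregs with a Foxp3 UMI and 316 CPM in those without, and was detected in 11% against 46.8%. Nr4a2 (39.1 against 143 CPM), Ifng (7.82 against 50.5 CPM), Tnfsf11 (62.5 against 159 CPM) and Bcl2 (82.1 against 147 CPM) were lower in the cells with Foxp3 in all 8 mice. Satb1 (125 against 237 CPM) and the ERK feedback gene Spry1 (11.7 against 61.1 CPM) were lower in 7 mice. Izumo1r, detected in 50% against 53.5%, differed little. A cell without a Foxp3 UMI may still express the gene, since a transcript is missed by chance at this depth, and no test was made because cells of 1 mouse are not replicates. Whether the authors' name holds for every cell without a Foxp3 UMI was not tested, and 101 of them had none of the 4 markers. Cd8a (0 against 29.4 CPM) and Cd8b1 (7.82 against 42.3 CPM) were lower in the cells with Foxp3. Gzmb (352 against 85.7 CPM) and the integrin gene Itgae (93.8 against 41.1 CPM) were higher.

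**Figure D2:**
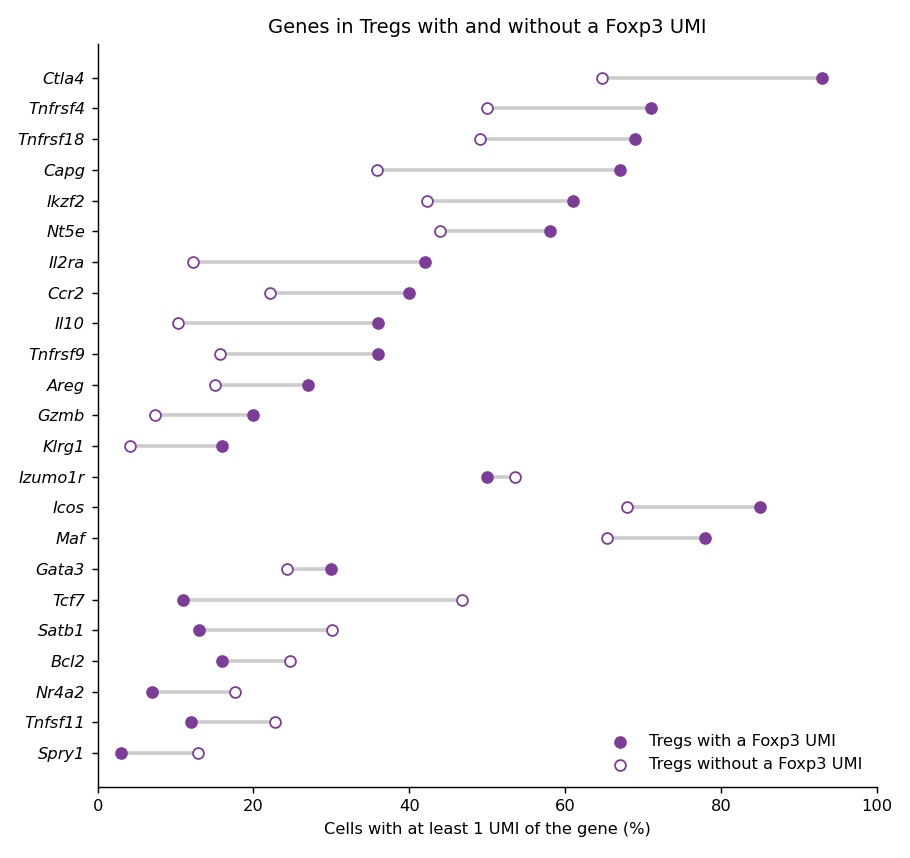
Share of Tregs with at least 1 UMI of each gene, in percent, for the 100 Tregs with a Foxp3 UMI (filled) and the 312 without (open), all mice together. Ctla4 (93% against 64.7%), Il2ra (42% against 12.2%) and Il10 (36% against 10.3%) lie to the right in the Tregs with Foxp3, and Tcf7 (11% against 46.8%) to the left.

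Between the genotypes, Il10 was the suppressive gene that stood furthest apart in Tregs. It was at 126, 182, 72.8 and 190.2 CPM in KO-labelled mice 2, 3, 6 and 7, against 261, 407, 406 and 331 CPM in WT-labelled mice 1, 4, 5 and 8. All 4 KO-labelled values lay below all 4 WT-labelled values. The log2 fold change was -1.37 ± 0.32 (SE), with a p of 0.00065 and an adjusted p of 0.598 over 1850 genes (edgeR quasi-likelihood test with Benjamini-Hochberg adjustment), so it did not pass the threshold of 0.05. Ctla4 was at 1079.7, 768, 915 and 1107 CPM in KO-labelled mice 2, 3, 6 and 7, against 1310.5, 1536, 1262 and 1929 CPM in WT-labelled mice 1, 4, 5 and 8, again without overlap (log2 fold change -0.60 ± 0.20, adjusted p 0.999). Of the 1850 genes, 1.24% had all KO-labelled values below all WT-labelled values and 0.865% had them above, 2.11% together, and 0% passed the threshold. For a gene with 8 different values, a share of 0.0286 of the 70 assignments of mice separates the groups in either direction. At an unadjusted p under 0.05 there were 54 genes by edgeR and 35 by DESeq2, and DESeq2's Wald test called 1 gene, Cxcl10.

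Foxp3 and Il2ra overlapped between the groups. Foxp3 was at 135, 115, 102 and 129.7 CPM in KO-labelled Tregs of mice 2, 3, 6 and 7, against 165, 226, 86.2 and 331 CPM in WT-labelled Tregs of mice 1, 4, 5 and 8 (log2 fold change -0.55 ± 0.34, adjusted p 0.999). The lowest and the highest of the 8 values were both WT-labelled. Il2ra spread more widely in the KO-labelled mice, at 27.0, 250, 81.5 and 199 CPM, against 172, 147, 135 and 138 CPM in the WT-labelled mice (-0.19 ± 0.45, adjusted p 0.999). With 19 Tregs drawn once from each mouse neither overlapped: Foxp3 was at 51.3 to 98.8 CPM in KO-labelled and 139 to 331 CPM in WT-labelled Tregs, and Il2ra at 19.8 to 51.3 CPM and 104 to 259 CPM. That single draw left few UMIs, with 36284 to 58495 UMIs of all genes per mouse. In it Il2ra fell from 250 to 36.6 CPM in KO-labelled mouse 3 and from 199 to 41.2 CPM in KO-labelled mouse 7. Mouse 8, with 19 Tregs, kept all its cells. Whether another draw would separate the groups was not tested. In all Tregs, 9 general T cell markers added together came to 5741 to 8193 CPM in KO-labelled Tregs and 6008 to 7344 CPM in WT-labelled Tregs. Foxp3 was detected in 22.1 ± 3.23% of KO-labelled Tregs and 32.4 ± 12% of WT-labelled Tregs (mean and SD of 4 mice each), Il10 in 14.2 ± 4.29% and 21.2 ± 4.83%, and Ctla4 in 66.4 ± 7.80% and 78.1 ± 11.8%.

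**Figure D3:**
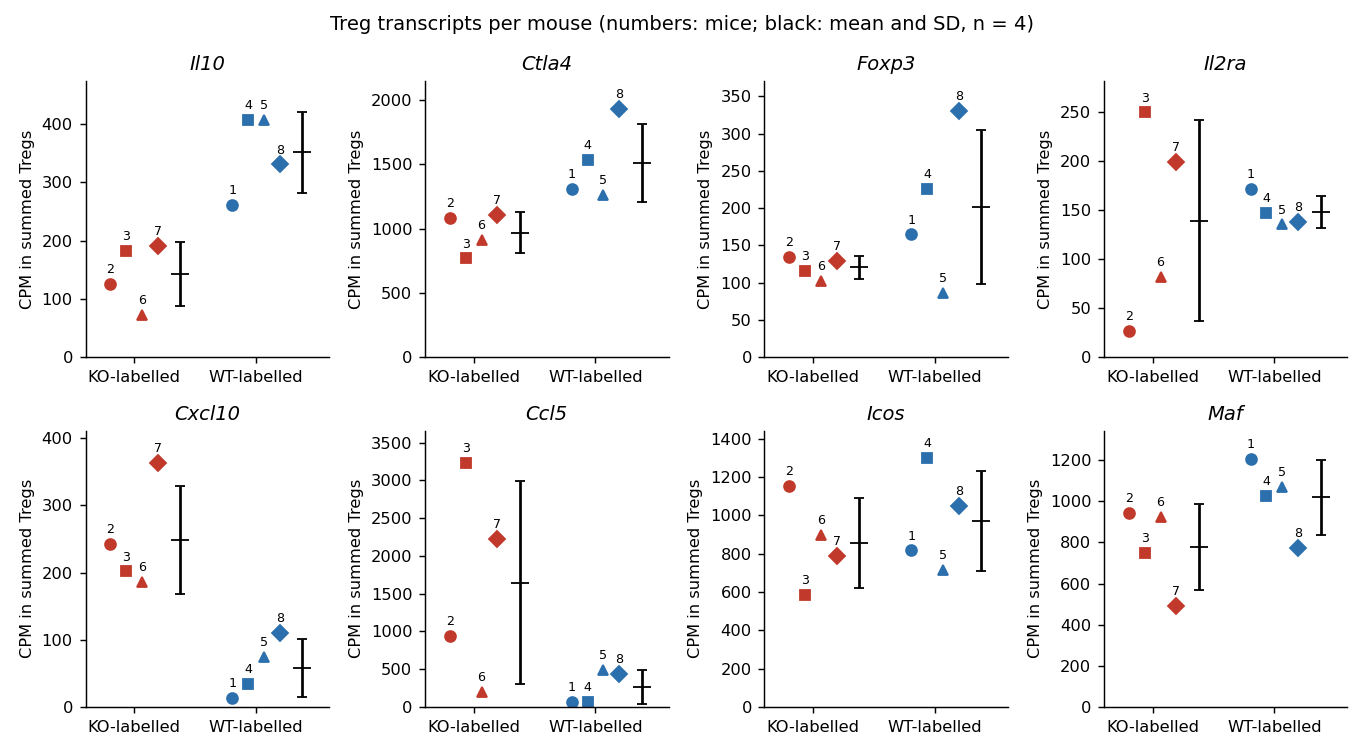
CPM of 8 genes in the Tregs of each mouse added together, KO-labelled (red) left and WT-labelled (blue) right; numbers are mice, and the black marks are the mean and SD of 4 mice. Il10 and Ctla4 are lower in every KO-labelled mouse than in any WT-labelled one and Cxcl10 is higher, while Foxp3, Il2ra, Ccl5, Icos and Maf overlap; none passed the adjusted threshold.

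The Il10 UMIs came from few cells: 14 in 4 Tregs, 19 in 6, 25 in 14 and 22 in 9 in KO-labelled mice 2, 3, 6 and 7, against 38 in 8, 36 in 10, 66 in 13 and 12 in 4 in WT-labelled mice 1, 4, 5 and 8. The UMIs per Treg with Il10 overlapped between the groups, and in KO-labelled mouse 2 a single Treg held 8 of the 14. Other choices of cells were also examined. Il10 stayed without overlap with 19 Tregs drawn from each mouse (20.6 to 237 CPM in KO-labelled, 311 to 557 CPM in WT-labelled Tregs), in the 302 Tregs with no UMI of Cd79a, Jchain, Lyz2 or Epcam, which define B, plasma, macrophage and epithelial cells, and in the Tregs of cluster 17. The 19 Tregs were drawn only once, and their low values rest on few UMIs. Ctla4 overlapped in the 302 Tregs, by a KO-labelled highest value of 1174 CPM and a WT-labelled lowest value of 1154 CPM. In the other cells of the T cell class, Il10 was near 0 (0 to 1.07 CPM in KO-labelled mice, 0 to 16.4 CPM in WT-labelled mice), and Ctla4 overlapped at 39.5 to 106 CPM in KO-labelled mice, against 46.1 to 128 CPM in WT-labelled ones. A test of whether the genotype difference in Tregs differed from that in these other T cells gave a log2 difference of -0.20 ± 0.26 for Ctla4 (adjusted p 1) and 2.39 ± 0.78 for Il10 (adjusted p 0.994), and the Il10 value rests on the few Il10 UMIs outside Tregs.

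Cxcl10 had the smallest p of the 1850 genes and stood higher in KO-labelled Tregs. It was at 243, 202, 186 and 363 CPM in KO-labelled mice 2, 3, 6 and 7, against 13.7, 33.9, 73.9 and 110.2 CPM in WT-labelled mice 1, 4, 5 and 8. The groups did not overlap (log2 fold change 2.30 ± 0.42, p 6.96e-05, adjusted p 0.129). The UMIs were in few cells: 154 UMIs in 24 of 244 KO-labelled Tregs (9.84%), and 21 UMIs in 14 of 168 WT-labelled Tregs (8.33%). The richest single Treg held 12 of 27, 11 of 21, 30 of 64 and 22 of 42 Cxcl10 UMIs in KO-labelled mice 2, 3, 6 and 7. The shares of Tregs with a Cxcl10 UMI were thus close between the groups, and a few rich cells made up much of the KO-labelled level. With 19 Tregs per mouse the groups overlapped (0 to 188 CPM in KO-labelled, 0 to 110.2 CPM in WT-labelled Tregs). The other T cells had 65.2 to 240.1 CPM in KO-labelled mice, against 35.8 to 109 CPM in WT-labelled ones, and the difference between Tregs and other T cells came to 1.66 ± 0.38 (adjusted p 0.0855).

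Among the other genes with the smallest p in each direction, Ikzf1, which encodes the lymphoid transcription factor Ikaros, was at 198, 182, 175 and 182 CPM in KO-labelled mice 2, 3, 6 and 7, against 103, 102, 135 and 138 CPM in WT-labelled mice 1, 4, 5 and 8. That is an increase in every KO-labelled mouse over every WT-labelled mouse that did not pass adjustment (0.64 ± 0.24). The genes of this paragraph were picked by their small p on the same values, which favours groups that do not overlap. Anxa2, which encodes an annexin, also stood higher without overlap (194 ± 133 CPM in KO-labelled Tregs and 71.3 ± 27.5 CPM in WT-labelled Tregs; log2 fold change 1.33 ± 0.47). Bcl2 (0.91 ± 0.32), Ostf1 (0.74 ± 0.27), Gramd3 (0.89 ± 0.36) and Spn, which encodes CD43 (0.68 ± 0.28), had positive fold changes with overlapping groups. On the lower side, Asb2, which encodes a subunit of a ubiquitin ligase, was at 72.0, 67.2, 49.5 and 8.65 CPM in KO-labelled mice 2, 3, 6 and 7, against 130.4, 102, 160.1 and 110.2 CPM in WT-labelled mice 1, 4, 5 and 8 (-1.40 ± 0.39). Arhgef3 (-1.08 ± 0.33), Arl5a (-1.15 ± 0.37) and Sipa1l1 (-0.94 ± 0.32) also did not overlap, while Ndufa3 (-0.86 ± 0.29) and Mptx1 (-2.44 ± 0.70) did. Mptx1 encodes a mucosal pentraxin and is a transcript of epithelium. Epithelial markers added together came to 146 to 384 CPM in KO-labelled Tregs and 203 to 926 CPM in WT-labelled Tregs; their part in the Mptx1 value was not tested. The adjusted p of these genes was 0.982 or above.

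Of the 15 gene lists, none had a gene past the threshold. Of 11 tested genes of the suppressive list, 9 had a log2 fold change below 0 and 2 above (median -0.14), against 889 below and 961 above 0 over all 1850 genes (median 0.02). This list had 6 of 11 below 0 without WT-labelled mouse 4 (median -0.007) and 7 of 11 without KO-labelled mouse 3 (median -0.02). For the identity factors it was 14 below and 6 above (median -0.18), with Maf at -0.39 ± 0.24, Ikzf2 at 0.11 ± 0.39 and Tnfrsf18 at 0.01 ± 0.29. The list led by Gata3 and Il1rl1 had 8 of 10 below 0 (median -0.28), with Areg at -0.49 ± 0.41 and Gata3 at -0.31 ± 0.32. The microbe-induced list had 6 of 8 below 0 (median -0.10), but 4 of 8 without WT-labelled mouse 4 (median -0.03). Klrg1, which was too low to be tested, stood at 36.0, 28.8, 26.2 and 8.65 CPM in KO-labelled mice 2, 3, 6 and 7 and at 117, 56.5, 24.6 and 165 CPM in WT-labelled mice 1, 4, 5 and 8. Costimulatory receptors had 8 of 10 below 0 (median -0.15), with Tnfrsf4 at -0.39 ± 0.28 and Icos at -0.14 ± 0.25. The resting and lymphoid list had 5 of 7 above 0 (median 0.17), but 3 of 7 without WT-labelled mouse 5 (median -0.11) and 3 of 7 without KO-labelled mouse 6 (median -0.02). Several of these lists share Il10, Ctla4, Icos or Maf, so their counts are not separate.

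Of the list of T cell receptor activation genes, which antigen contact can induce within hours, 16 of 17 were below 0 (median -0.36). Over all 1850 genes 889 were below 0 (median 0.02). What induced the transcripts of this list was not tested. Nr4a3 was at 324, 288, 262 and 147 CPM in KO-labelled mice 2, 3, 6 and 7, against 377, 486, 302 and 606 CPM in WT-labelled mice 1, 4, 5 and 8 (-0.70 ± 0.27). The NF-kB subunit gene Rel (-0.82 ± 0.36) and the AP-1 gene Jun (-1.12 ± 0.49) had the lowest fold changes of those named here. WT-labelled mouse 8, which has 19 Tregs, stood apart in this list: Junb was at 6835 CPM there, against 2369 to 3788 CPM in the other 7 mice, Nr4a1 at 1130.0 CPM, Jun at 1461 CPM and Tnfrsf9 at 909 CPM. Without mouse 8, 12 of 17 were below 0 (median -0.19), the list led by Gata3 and Il1rl1 had 5 of 11 below 0 (median 0.01) and the suppressive list 6 of 11 (median -0.12). The 4 markers were all below 0 without it too (median -0.42). Mouse 8 also had the lowest mitochondrial share among Tregs (median 1.88%, against 3.71 to 5.63% in the others), and the part of these differences in the list was not tested.

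Other pathway lists gave no call either. The medians of the homing, interferon, effector cytokine and metabolite receptor lists change sign with single mice left out. Homing receptors had 8 of 14 below 0 (median -0.01), with Ccr2 at -0.43 ± 0.26 and Cxcr6 at 0.40 ± 0.47. The IL-2 receptor and STAT5 list had 7 of 12 below (median -0.15), with Il2rb at -0.20 ± 0.23 and the feedback inhibitor Socs1 at 0.10 ± 0.37. TGF-beta receptors and targets had 6 of 8 below (median -0.13), with Tgfb1 at -0.10 ± 0.27 and Smad7 at -0.16 ± 0.25. They had 4 of 8 below without WT-labelled mouse 4 (median -0.05) and 4 of 8 without WT-labelled mouse 8 (median -0.03). Interferon response genes, among which Isg15 stood at 0.42 ± 0.50, had 3 of 6 below 0 (median 0.07). Cell cycle genes had 4 of 4 above 0 (median 0.23), but 2 of 4 without KO-labelled mouse 7 (median 0.03) and 0 of 2 without the Tregs of over 3 times the median UMIs of their mouse (median -0.03). The Sprouty, Spred and ERK feedback list had 3 of 5 below (median -0.21), metabolite and vitamin receptors 2 of 4 below (median 0.00) and effector cytokines 1 of 1 below (-0.19). Without WT-labelled mouse 4 the metabolite receptor median was 0.14 and the effector cytokine value 0.09. Without WT-labelled mouse 5 they were -0.27 and 0.02.

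Ccl5, a chemokine of cytotoxic cells, and 3 further genes differed in their genotype effect between Tregs and the other cells of the T cell class. The 4 genes, 0.055% of 7270 tested, were Ifitm1 (adjusted p 0.000187), Ccl5 (0.0149), Ccl4 (0.0325) and Ccl3 (0.0325; edgeR quasi-likelihood test with mouse as a factor). Ccl5 was at 945, 3226, 195 and 2222 CPM in Tregs of KO-labelled mice 2, 3, 6 and 7, against 61.8, 67.8, 486 and 441 CPM in WT-labelled mice 1, 4, 5 and 8, where the groups overlapped (2.72 ± 0.75, adjusted p 0.982 in Tregs alone). In the other T cells Ccl5 averaged 2865 ± 715 CPM for KO-labelled mice, against 2705 ± 1205 CPM for WT-labelled ones. The difference between the 2 effects was 2.27 ± 0.45 for Ccl5 and 4.78 ± 1.02 for Ccl4. WT-labelled Tregs held no UMI of Ifitm1 or Ccl3, which allows up to 6.93 CPM, so their fitted differences of 10.74 and 9.61 depend on the prior count and give no size.

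The Ccl3, Ccl4 and Ifitm1 UMIs lay almost wholly in 1 Treg of KO-labelled mouse 3. That cell, with 2549 UMIs and none of Foxp3, Ctla4, Cd4, Cd3e or Cd3g, held 35 of the 36 Ccl3 UMIs, 131 of the 132 Ccl4 UMIs and all 35 Ifitm1 UMIs of that mouse's Tregs. Another, the largest Treg with 9434 UMIs, held no UMI of Foxp3, Ctla4 or Cd4, but 4 of Cd3e, 8 of Cd3g, 19 of Cd7, 211 of the 336 Ccl5 UMIs and all 243 UMIs of the granzyme gene Gzma. These 2 Tregs were picked as those of mouse 3 with the most Ccl3, Ccl4, Gzma and Ifitm1 UMIs. The loss of Ccl3, Ccl4 and Ifitm1 without them therefore largely follows from that choice. Without these 2 Tregs no gene passed (266 at an unadjusted p under 0.05), and the Ccl5 difference was 1.88 with an adjusted p of 0.0768. Ccl5 in mouse 3 was then at 1356 CPM, still above all 4 WT-labelled mice, and KO-labelled mice 2 and 7 held 105 and 257 Ccl5 UMIs. With whole mice left out, 0 genes passed without KO-labelled mouse 3, 8 without KO-labelled mouse 2 and 1 without WT-labelled mouse 4. KO-labelled mouse 7 showed the same concentration, with 176 of 257 Ccl5 UMIs in 1 Treg, all 48 Gzma UMIs in 1 and 46 of 47 UMIs of the fibroblast gene Dcn in 1. Markers of CD8+ and intraepithelial T cells added together came to 144 to 2640 CPM in KO-labelled Tregs, with the highest value in mouse 3 and 813 CPM in mouse 7, and to 248 to 406 CPM in WT-labelled Tregs. Fibroblast markers came to 0 to 778 CPM in KO-labelled Tregs, the highest in mouse 7, and to 0 to 34.3 CPM in WT-labelled Tregs. Macrophage markers came to at most 14.6 CPM in KO-labelled Tregs and 12.3 CPM in WT-labelled Tregs, with C1qa, C1qc and Csf1r at 0 in all mice.

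**Figure D4:**
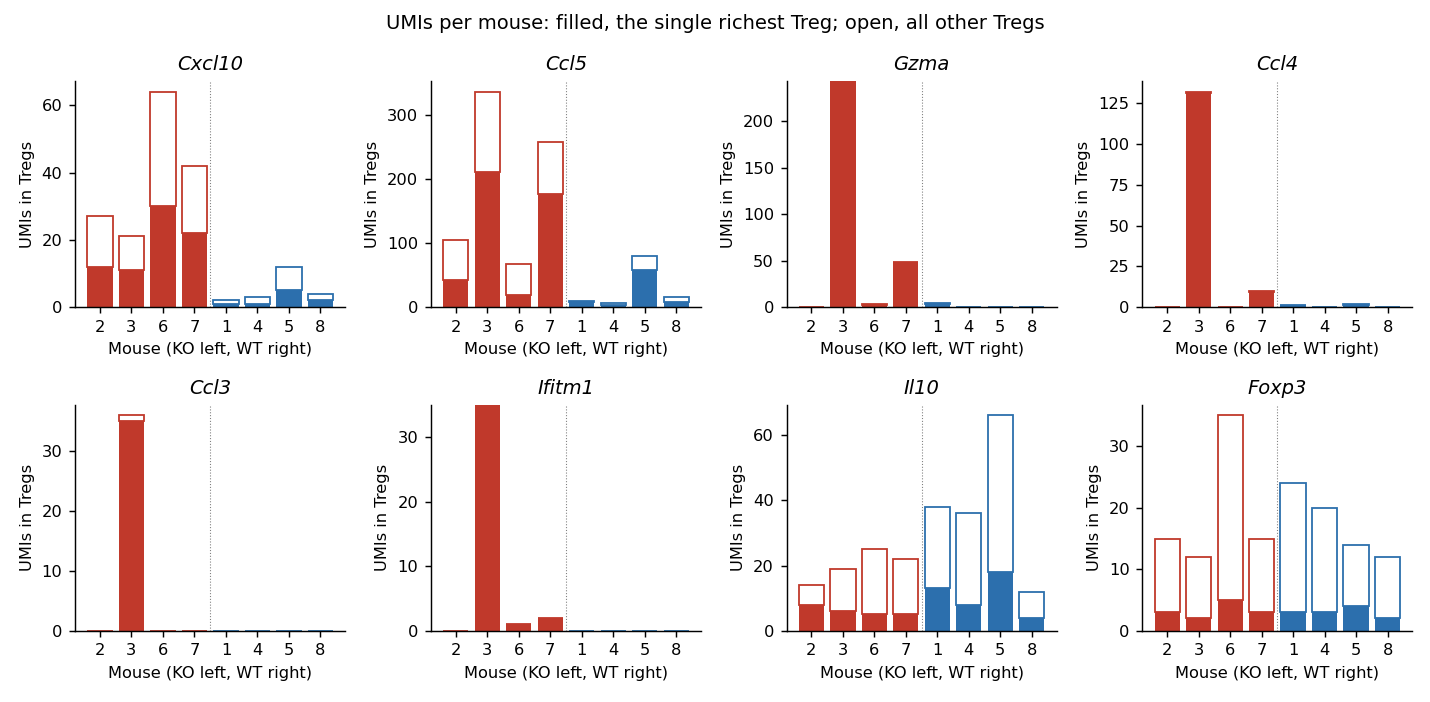
UMIs of 8 genes in the Tregs of each mouse, KO-labelled (red) left and WT-labelled (blue) right; the filled part is the single Treg with the most UMIs of that gene and the open part all other Tregs. In mouse 3, the Gzma UMIs come from 1 Treg and nearly all Ccl4, Ccl3 and Ifitm1 UMIs from another, and mouse 7 holds 48 Gzma UMIs in 1 Treg; the richest Treg holds 12 of 27 to 11 of 21 of the Cxcl10 UMIs in KO-labelled mice and 8 of 14 Il10 UMIs in mouse 2.

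The number of Tregs did not separate the genotypes. Tregs made up 9.21, 6.19, 7.78 and 5.18% of the T cell class in KO-labelled mice 2, 3, 6 and 7, against 7.17, 4.80, 10.6 and 8.41% in WT-labelled mice 1, 4, 5 and 8. The groups overlapped, with means of 7.09 ± 1.77% for KO-labelled mice and 7.75 ± 2.44% for WT-labelled ones (SD, n = 4 each; difference -0.66 percentage points, two-sided exact permutation test over 70 assignments p = 0.657, adjusted 0.657 over both shares). Of all cells, Tregs made up 0.592, 0.461, 1.91 and 0.917% in KO-labelled mice, against 0.800, 0.386, 0.838 and 0.575% in WT-labelled ones (0.969 ± 0.653% and 0.650 ± 0.210%; exact permutation p = 0.457, adjusted 0.657). KO-labelled mouse 6, which gave 117 Tregs, accounted for most of that difference, which was 0.0070 percentage points without it. Tregs with a Foxp3 UMI made up 1.54 ± 0.33% of the T cell class in KO-labelled mice, against 2.43 ± 1.06% in WT-labelled ones (n = 4 each, exact permutation p = 0.114). The smallest p that this design allows is 0.0286. The T cell class itself differed in makeup between mice, with inactive cells numbering 209 to 421 in mice 1 to 4 and 16 to 94 in mice 5 to 8, which changes the denominator of the first share. Between mice 1 to 4 and mice 5 to 8, the direction of the share of the T cell class turned: it differed by 1.72 percentage points in mice 1 to 4 and by -3.05 in mice 5 to 8 (KO-labelled minus WT-labelled, 2 mice each).

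**Figure D5:**
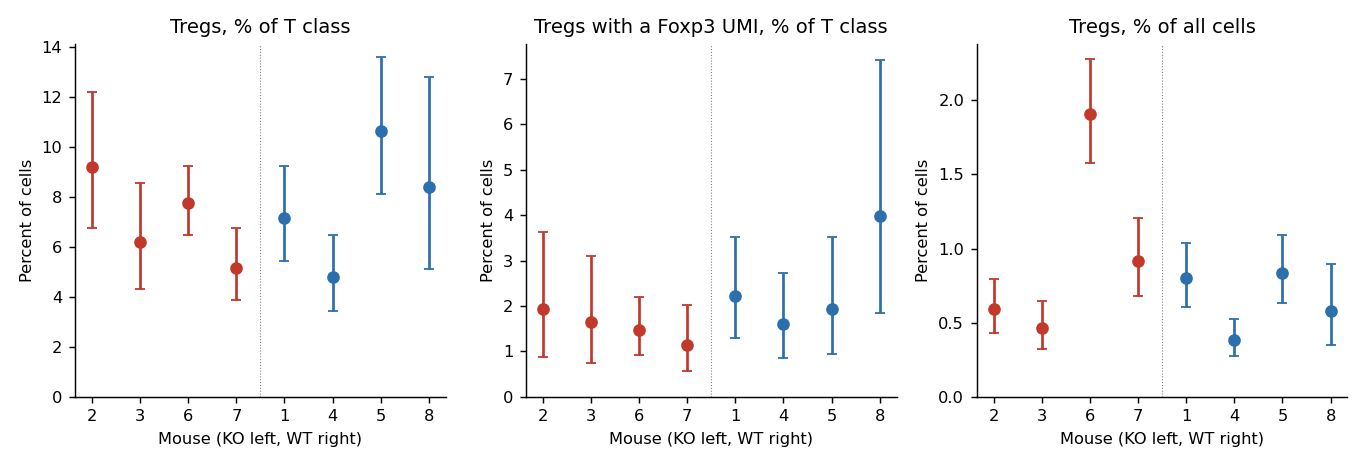
Tregs as a percent of the T cell class, Tregs with a Foxp3 UMI as a percent of the T cell class, and Tregs as a percent of all cells, for each mouse, KO-labelled (red) left and WT-labelled (blue) right. Lines are exact 95% binomial intervals, which cover counting error only; the groups overlap in all 3 panels.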

How the data were processed

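Distal colonic mucosa of 8 mice (4 KO-labelled, 4 WT-labelled) was stripped of muscle, digested and cleared of dead cells, and 10x Chromium 3′ libraries were run on 1 day as 1 batch, per the labels' protocols. Cell Ranger 3.0.2 and mm10 are named in the submitters' processing notes; how the authors filtered, clustered and named the cells is not given in the sources used here. Values in the deposited matrix are UMI counts as counted, with no scaling, of 53080 cells and 31053 genes. The authors' size factor per cell is a ratio of that cell's UMIs to the geometric mean over cells; it served to match cells to matrix columns, since it equalled the column totals for 16 cells in the table's own order and for all 53080 after sorting by mouse, then barcode (tolerance 1e-06). UMAP axes, which the authors deposited as a score with no unit, were not used. No deposited column of sample values was left unused (0).

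Cells that the authors named doublets were kept in the denominators and no doublet caller was run. UMIs of the Tregs were added per mouse, so that the mouse is the replicate, and tested with edgeR 4.0.16 (TMM, filterByExpr, quasi-likelihood F test, Benjamini-Hochberg adjustment, threshold 0.05) in R 4.3.3, with DESeq2 1.42.0 as an alternative. The interaction fit compared the Tregs with the other T class cells of the same mice, with mouse as a factor. Printed CPM are the UMIs of a gene for every 1000000 UMIs of the sum, and fold changes are edgeR's. Nothing in the labels pairs mice across groups. Shares were compared with a two-sided exact permutation test. Within-mouse differences from other subtypes used log2(CPM + 10), for mice with at least 10 cells on both sides. Thinning drew 1000 UMIs per cell. In a test on made-up counts with known changes, the genotype fit on 1850 genes recovered 56.8% of 2-fold and 71.4% of 4-fold changes. The interaction fit on 7270 genes recovered 18.2% and 68.3%. In the genotype fit, 75 of 105 4-fold genes passed the filter and all 75 were recovered. That fit also called 8 unchanged genes and the interaction fit 3. The made-up counts took their spread from a trend over genes, without each gene's own spread. They may vary less than these Tregs, so the shares do not show how large a change the real fits would miss. Other steps ran in Python 3.11.15 (pandas 2.3.3, numpy 2.4.6, scipy 1.17.1, matplotlib 3.10.9).

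The members and the 15 gene lists (206 genes) were chosen with earlier results of these data known. Between genotypes, genes were named where they passed the threshold, and otherwise as the 8 with the smallest p in each direction, with markers and list members; some of these genes are not reported here. Between subtypes, the 15 highest and 10 lowest genes of the same sign in every mouse were eligible. Fold changes of the other genes and single-cell counts were added after their values were seen. Alternatives were other size factors, DESeq2, no filter on low counts, each mouse left out, mice 1 to 4 against 5 to 8 as a term, equal cell numbers, other choices of Tregs, other T cells to compare with and other denominators.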

Additional observations from a re-analysis of the deposited data

Results flagged for a closer look

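Of 40 groups of 4 mice examined for a single distant value, 1 had one, and chance gives about 1 in 20. In WT-labelled Tregs, Arl5a was at 331 CPM in mouse 8, far from the 117 to 147 CPM of the other 3 WT-labelled mice. The Arl5a value of mouse 8 comes from 12 UMIs in 19 Tregs.

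The genotype difference was not the same in Tregs and in the other cells of the T cell class for 4 genes. On the log2 scale, KO-labelled over WT-labelled in Tregs minus the same in the other T cells came to 10.74 for Ifitm1, 2.27 for Ccl5, 4.78 for Ccl4 and 9.61 for Ccl3. WT-labelled Tregs held no UMI of Ifitm1 or Ccl3, so those 2 values depend on the prior count. A pair of Tregs of KO-labelled mouse 3, picked by their Ccl3, Ccl4, Gzma and Ifitm1 UMIs, held most UMIs of all 4 genes in that mouse. No gene passed without them, with Ccl5 at 1.88.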

How the results depend on the processing

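No paired analysis was possible because the mouse numbers differ between the groups and no mouse number occurs in both. The count of genes past the threshold between KO-labelled and WT-labelled Tregs was 0 and remained 0 with other size factors, with each mouse left out (0 to 0) and with the 7 other choices of Tregs or terms that were run; DESeq2's Wald test called 1 gene and the fit without a filter on low counts 13 (10 higher, 3 lower). The cause was not tested. Of 319 refits of single named genes, 312 kept their direction and side of the threshold and 5 passed it. Il2ra reversed to 0.098 without KO replicate 2 and to 0.109 without KO replicate 6 (from -0.592 to 0.109 with each mouse left out). The count of genes whose genotype effect differed between Tregs and other T cells, 4, ranged from 0 to 8 with mice left out: 0 without KO-labelled mouse 3, 1 without WT-labelled mouse 4 and 8 without KO-labelled mouse 2. It was 0 by DESeq2, 0 against activated and inactive cells, 0 against activated, inactive and memory cells and 0 without the 2 Tregs of mouse 3, and 8 without the filter and 8 with mice 1 to 4 against 5 to 8 as a term. Mice 1 to 4 and 5 to 8 were divided in an earlier account from the mitochondrial share of epithelial cells. The labels name no batch that separates these mice, and their protocols give 1 day and 1 batch for all libraries. The difference in the share of the T cell class ran from -1.65 to 0.297 percentage points with mice left out, reversed to 0.297 without WT-labelled mouse 5, and was 1.72 within mice 1 to 4. The share of all cells ran from 0.0070 to 0.488 with mice left out and reversed to -0.0662 within mice 1 to 4, to -0.129 of non-epithelial cells and to -0.275 of immune cells. The choices of Tregs by barcode, cluster, mouse 3 and UMI number, and 4 denominators or comparison sets, were added after seeing the data. Depth limits the low genes: with 36284 UMIs in the Tregs of mouse 8, a single UMI there is a large step in CPM.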
